A study of Rattus norvegicus with 4 samples.

Results

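Carotid bodies (CBs) make 3 gaseous messengers, hydrogen sulfide (H2S), carbon monoxide (CO) and nitric oxide (NO), and the transcripts of the enzymes that produce them were followed here from the neonatal to the adult CB. The enzymes were chosen by symbol. They are Cth, Cbs and Mpst for H2S, Hmox1 and Hmox2 for CO, and Nos1, Nos2 and Nos3 for NO, 8 genes in all, set against the 32883 genes listed. A row under the symbol was used for 7 of the 8, and Cth was not analysed here. Of the 7, 6 were tested among 13843 genes, having reached 1 CPM (counts per 1000000 counts of the library) in 2 or more of the libraries, and Nos2 was not.

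RNA came from Sprague Dawley rats of day 5 (neonates) and day 21 (adults). Each age had 2 libraries, each made from the pooled CBs of 6 pups or of 3 adult rats according to the sample descriptions, while the study's methods give larger pools and more replicates per age. The animals carried no engineered allele and had no treatment other than urethane at the end, and part of each litter was kept to the later age. Day 21 is the age of weaning, and both sexes were pooled. Whole CBs were used, so every level is that of the mixed tissue, in which fewer cells of a type and less RNA per cell cannot be told apart.

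The glomus cells of the CB sense the oxygen of arterial blood and excite the carotid sinus nerve when it falls. In the scheme known from work on adult glomus cells, heme oxygenase-2 uses oxygen to split heme into CO, biliverdin and iron, and the CO restrains H2S synthesis by cystathionine gamma-lyase, the product of Cth, through cyclic GMP and protein kinase G. When oxygen falls, less CO is made and H2S rises. NO is made from arginine and oxygen by the synthases of nerve fibers (Nos1), of endothelium (Nos3) and, after induction, of immune and other cells (Nos2), and it is known as an inhibitor of CB activity.

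The table holds estimated read counts. Levels below are CPM of the library total, and the libraries held from 36286191 to 39476110 estimated counts, so that 3 counts, the floor used here, are worth 0.0760 to 0.0827 CPM. Counts were tested with edgeR's quasi-likelihood test after TMM scaling, which corrects for the share of a library taken by a few abundant genes, and p-values were adjusted over all genes tested (Benjamini-Hochberg). A log2 fold change is on the TMM scale, neonate over adult. Over all genes its median was -0.0029 with TMM and -0.25 with library size alone, so a gene of equal CPM at both ages appears higher in neonates by about the difference of the 2 medians. With 2 libraries against 2, the smallest exact permutation p of a single gene is 0.333, and all p-values given come from the fit across genes. Libraries of an age are labelled as biological replicates, and p-values and standard errors (SE) measure the spread between these pools.

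All 10 glomus cell markers examined passed the filter, and their summed level was 5440 and 4329 CPM in the neonatal libraries and 5766 and 4817 CPM in the adult libraries. Other tissue moved with age. Parathyroid markers (Pth, Gcm2, Casr) summed to 1616 CPM in the first neonatal library (replicate 1) and 197 CPM in the other, with at most 0.0551 CPM in the adult libraries, so neonate replicate 1 stands apart and results are also given without it. Erythroid markers were higher in neonates for all 5 with a row, at sums of 8010 and 4826 CPM against 2317 and 2109 CPM. Of the 8 macrophage markers, 7 were lower in neonates, at sums of 83.6 and 98.0 CPM against 189 and 186 CPM. The plot of marker lists shows these sums.

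At an adjusted p under 0.05 and at least 2-fold, 1 of the 6 enzymes was lower in neonates (Nos1), where 13.2% of all genes tested were called in that direction. None was called higher at 2-fold, by edgeR, DESeq2 or limma-voom, or at an unadjusted p under 0.05 in edgeR, against 7.68% of all genes. At an adjusted p alone, 3 were higher in neonates (Mpst, Hmox1 and Nos3, against 31.2% of all genes) and 1 was lower (against 31.1%), together 4 of 6 beside 62.3% of all genes. The median log2 fold change of the 6 was 0.27, beside -0.0029 for all genes. On the CPM scale the ages did not overlap for 3 of the 6, against 83.1% of all genes tested, and on the TMM scale for 4, Mpst added, against 83.0%. The plot of levels by library shows the 7 enzymes.

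**Figure D1:**
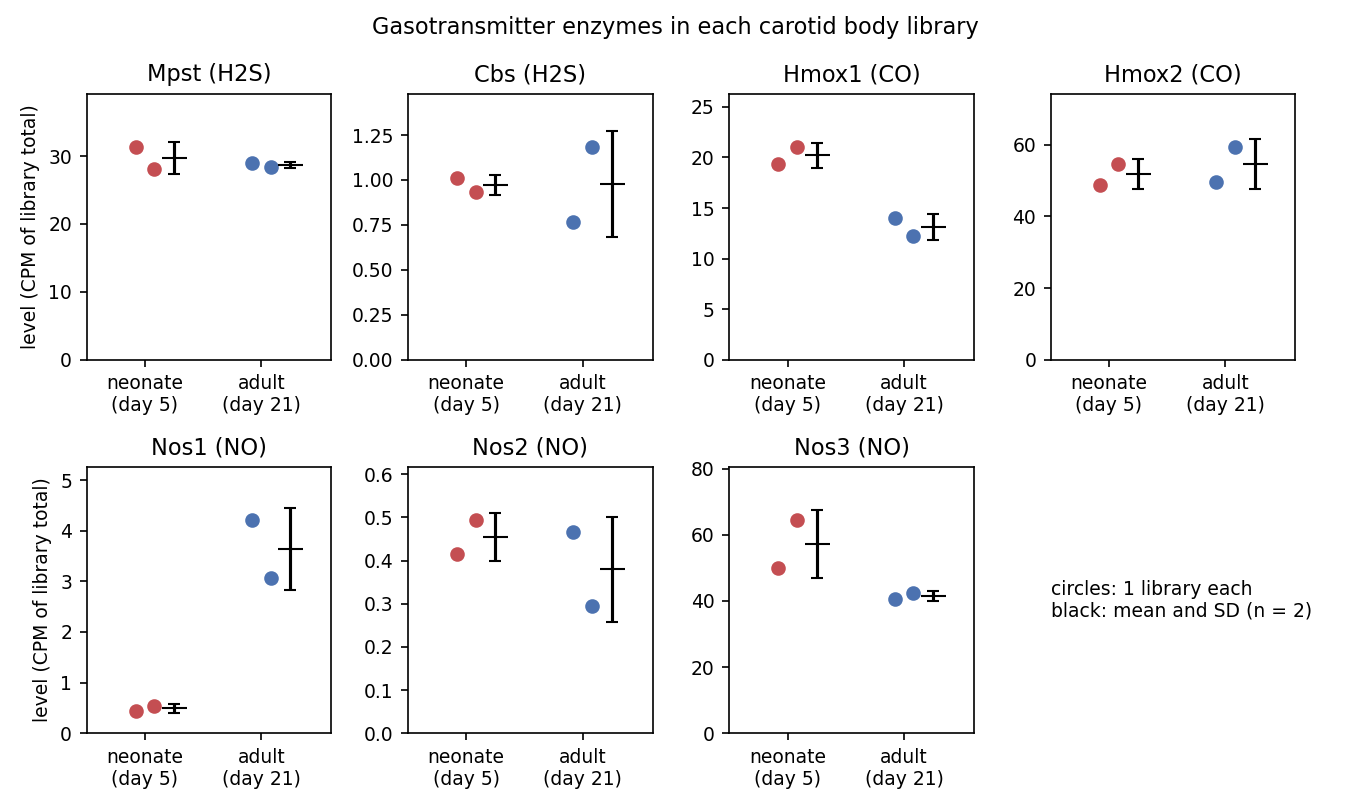
Level (CPM of the library total) of the 7 enzymes in each library, with circles for libraries and black marks for the mean and SD of 2 libraries. Each axis starts at 0 and has its own scale. Only Nos1, Hmox1 and Nos3 have neonatal and adult libraries that do not overlap.

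Of the NO synthases, Nos1 was lower in neonates, Nos3 was higher by less than 2-fold, and Nos2 was too low for the filter. Nos1 (ENSRNOG00000001130), the neuronal synthase, had 0.431 and 0.545 CPM in the neonatal libraries (17 and 21 counts) and 4.21 and 3.06 CPM in the adult libraries (159 and 111 counts). Both adult libraries lay far above both neonatal ones. The mean CPM was 7.45 times higher in adults, and the log2 fold change was -2.65 (SE 0.38, edgeR quasi-likelihood adjusted p = 0.00036), or 6.27-fold on the TMM scale. Nos1 passed the filter through its adult libraries only, so a gene at its neonatal level at both ages would not have been tested. Fitted without a filter among 19411 genes, its log2 fold change was -2.67 (SE 0.38, edgeR adjusted p = 0.00037). Leaving out any library in turn gave log2 fold changes from -2.87 to -2.39, and without neonate replicate 1 the value was -2.51 (edgeR adjusted p = 0.00049).

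Cell type markers did not all move with Nos1. Of the 8 neuron markers, 7 were higher in neonates, among them the neurofilaments Nefl, Nefm and Nefh and the sympathetic genes Npy and Slc6a2, and their summed level was 2134 and 1955 CPM in neonates and 1795 and 1530 CPM in adults. Per 1000 CPM of these neuron markers, Nos1 stood at 0.202 and 0.279 CPM in neonates and 2.35 and 2.0 CPM in adults. Nos1 is also expressed by skeletal muscle, and of that list 4 markers were tested and all 4 had an adjusted p of 0.05 or more. The list summed to 15.1 to 27.1 CPM over the libraries. Of 3 markers under the filter, Ckm (0.481 and 0.416 CPM in neonates, 0.847 and 2.26 CPM in adults) and Pvalb were lower in both neonatal libraries. Tnni2 was higher in both. Smooth muscle and pericyte markers, 3 lower and 1 higher in neonates of 6, summed to 1092 and 1168 CPM in neonates and 2142 and 2292 CPM in adults. Rgs5, a pericyte gene, held most of that difference (272 and 247 CPM against 1088 and 1062 CPM), and the other 5 summed to 821 and 921 CPM in neonates and 1054 and 1230 CPM in adults. Nos1 was 3.83 times higher in adults per 1000 CPM of the whole list and 5.80 times higher per 1000 CPM of the list without Rgs5, a comparison chosen after the values were seen. The cells that carry Nos1 in these libraries were not tested.

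Nos3 (ENSRNOG00000009348), the endothelial synthase, had 49.9 and 64.4 CPM in the neonatal libraries and 40.5 and 42.5 CPM in the adult libraries. The neonatal libraries were both higher than the adult ones, and they differed more from each other than the adult libraries did. Its mean CPM was 1.38 times higher in neonates and its log2 fold change was 0.70 (SE 0.12, edgeR quasi-likelihood adjusted p = 0.00076), short of 2-fold. The value was 0.86 without neonate replicate 1, 0.55 without neonate replicate 2 and 0.46 with library size alone (edgeR adjusted p = 0.012).

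Endothelial markers moved in both directions. Of 8, Robo4 was under the filter and Pecam1 was not analysed here. Among the 6 tested, Emcn (0.28 in log2 fold change) and Egfl7 (0.82) were higher in neonates, the angiopoietin receptor gene Tek was lower, and Cdh5, Tie1 and Kdr had an adjusted p of 0.05 or more. The list's median log2 fold change was 0.18, and its sum was 1001 and 1056 CPM in neonates and 1074 and 1121 CPM in adults. Per 1000 CPM of endothelial markers, Nos3 stood at 49.9 and 61.0 CPM in neonates and at 37.7 and 37.9 CPM in adults. The part of endothelial content in the Nos3 difference was not tested.

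Reads of Nos1 per read of Nos3, a ratio within a library that no scaling between libraries touches, were 0.0086 and 0.0085 in neonates and 0.104 and 0.0720 in adults, a mean 10.3 times higher in adults. The transcripts differ in length, so the ratio compares ages and not the amounts of the 2 transcripts. Nos2 (ENSRNOG00000057443), the inducible synthase, had 16.4, 19.0, 17.6 and 10.7 estimated counts in neonate replicates 1 and 2 and adult replicates 1 and 2, or 0.294 to 0.493 CPM, and was not tested with the filter. The ages overlapped. Fractional counts in 3 of its 4 libraries mean that some of its reads were shared with another sequence, and it is the 1 member for which this was so. Fitted without a filter among 19411 genes, its log2 fold change was 0.42 (SE 0.74, edgeR quasi-likelihood adjusted p = 0.67).

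The DNA just before the start of the oppositely changed synthase genes is shown for orientation, as given by RefSeq on the build GRCr8, which is not the build the reads were mapped to. Each line holds the 250 bases before the start site, 5′ to 3′, at chr12:44371838-44372087 (minus strand) for Nos1 and at chr4:11706582-11706831 (minus strand) for Nos3, with matched motifs in capitals. The start used for Nos1 lies 84534 bases inside the annotated gene, which has several first exons, and other starts were not examined.
Nos1: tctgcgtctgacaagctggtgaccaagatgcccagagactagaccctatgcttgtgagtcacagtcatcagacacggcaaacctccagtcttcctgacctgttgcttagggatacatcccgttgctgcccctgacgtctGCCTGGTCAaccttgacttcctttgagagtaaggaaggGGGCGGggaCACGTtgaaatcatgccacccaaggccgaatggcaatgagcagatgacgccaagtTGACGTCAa
Nos3: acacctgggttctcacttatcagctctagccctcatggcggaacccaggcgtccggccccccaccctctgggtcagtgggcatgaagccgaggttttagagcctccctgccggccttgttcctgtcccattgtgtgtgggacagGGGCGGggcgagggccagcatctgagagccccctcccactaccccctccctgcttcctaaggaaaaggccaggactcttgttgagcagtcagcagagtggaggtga
Motifs were searched on both strands. The Nos1 window holds a cAMP response element (TGACGTCA) that starts 9 bases before the start site, which 1.59% of 33469 RefSeq promoter windows of this length hold. It also holds 1 hypoxia response element core (ACGTG, in 16.6% of windows), 1 antioxidant response element core (TGACNNNGC, in 10.1%) and 1 GC box (GGGCGG, in 30.5%). The Nos3 window holds 1 GC box and no match to the other letters searched, which include GCGTG (25.9% of windows) and TATAAA (12.9%). The reads measure transcript levels only, and no binding to these sites was measured.

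The heme oxygenases differed from each other. Hmox1 (ENSRNOG00000014117), the form induced by heme and oxidative stress, had 19.3 and 21.1 CPM in the neonatal libraries and 14.1 and 12.2 CPM in the adult libraries. Both neonatal libraries were higher, with a gap wider than the spread at either age. The mean CPM was 1.54 times higher in neonates, and the log2 fold change was 0.86 (SE 0.13, edgeR quasi-likelihood adjusted p = 0.00047), or 1.82-fold on the TMM scale. It was 0.90 without neonate replicate 1 and 0.62 with library size alone (edgeR adjusted p = 0.0034).

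Hmox2 (ENSRNOG00000003773), the constitutive form named in the glomus cell scheme, had 48.9 and 54.7 CPM in neonates and 49.6 and 59.5 CPM in adults. The ages overlapped, and libraries of the same age lay further apart than the means of the ages. Its log2 fold change was 0.17 (SE 0.11, edgeR quasi-likelihood adjusted p = 0.19), and with library size alone it was -0.074, of the other sign. Per 1000 CPM of glomus cell markers, Hmox2 stood at 8.98 and 12.6 CPM in neonates and 8.61 and 12.3 CPM in adults, ranges that also overlapped. Reads of Hmox1 per read of Hmox2 were 0.396 and 0.385 in neonates and 0.283 and 0.205 in adults.

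Hmox1 is abundant in macrophages that clear red cells, and the macrophage list moved the other way. Csf1r, C1qa, C1qb, C1qc, Cd163, Adgre1 and Mrc1 were lower in neonates and Cd68 had an adjusted p of 0.24 (edgeR). Per 1000 CPM of macrophage markers, Hmox1 stood at 231 and 215 CPM in neonates and 74.3 and 65.7 CPM in adults. Erythroid markers moved in the same direction as Hmox1 and by more, so that per 1000 CPM of them Hmox1 stood at 2.41 and 4.36 CPM in neonates and 6.07 and 5.79 CPM in adults. The part of either cell type in the Hmox1 difference was not tested.

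Of the H2S enzymes, Mpst (ENSRNOG00000000185), which forms a persulfide from mercaptopyruvate, had 31.4 and 28.1 CPM in neonates and 29.0 and 28.4 CPM in adults. The ages overlapped on this scale, and the mean CPM differed by 1.04 times. On the TMM scale its log2 fold change was 0.30 (SE 0.11, edgeR quasi-likelihood adjusted p = 0.033), a call that depended on the scaling and on single libraries. The adjusted p was 0.66 with library size alone, 0.062 in DESeq2, and 0.21, 0.077 and 0.13 in edgeR without neonate replicate 1, adult replicate 1 and adult replicate 2.

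Cbs (ENSRNOG00000029528), which joins homocysteine to serine and can release H2S from cysteine, was close to the filter in every library, at 1.01 and 0.935 CPM in neonates and 0.768 and 1.19 CPM in adults, from 29 to 43 counts. The adult libraries enclosed both neonatal ones. Its log2 fold change was 0.25 (SE 0.42, edgeR quasi-likelihood adjusted p = 0.62), and it had the other sign with library size alone (-0.0011) and without adult replicate 1 (-0.026). No difference was detectable at this depth. The plot of log2 fold changes shows how far each value moved over the alternatives.

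**Figure D2:**
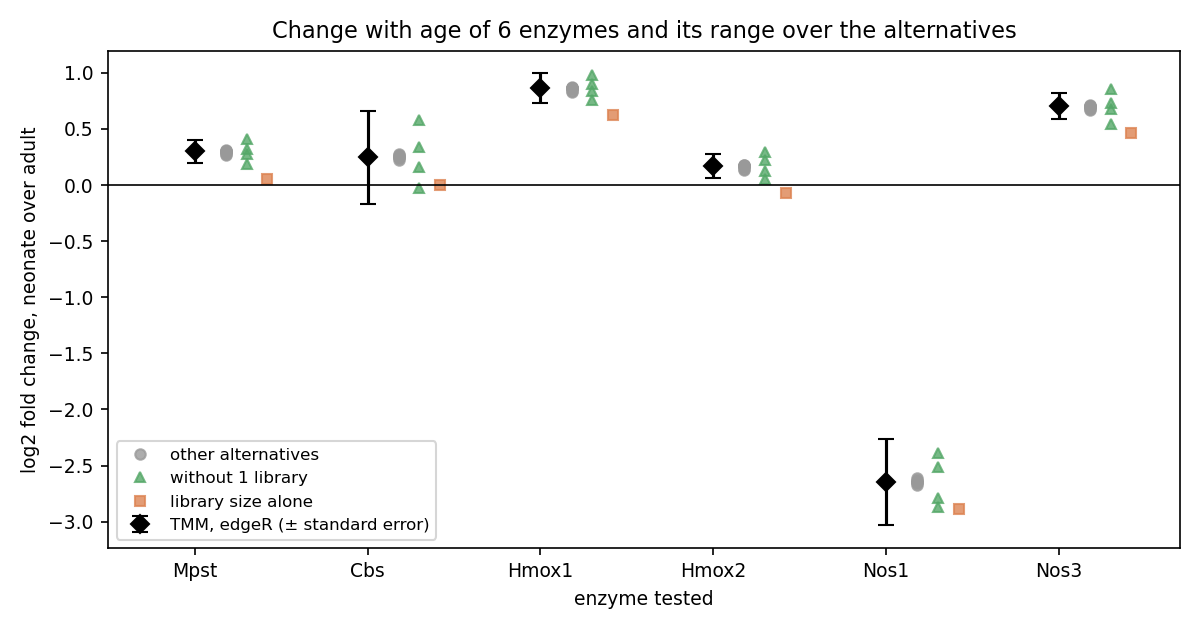
Log2 fold change, neonate over adult, of the 6 enzymes tested. Black diamonds are the TMM fit with its standard error, gray circles and orange squares other settings, and green triangles fits without 1 library. Nos1 stayed between -2.89 and -2.39 and Hmox1 between 0.62 and 0.98, while Mpst, Cbs and Hmox2 came down to or below 0.053 when library size alone was used.

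Partners of the enzymes were followed in a list of 76 genes ordered by role. Of these, 68 were tested, 5 were under the filter and 3 were not analysed here. At an adjusted p under 0.05, 28 (41.2%) were higher in neonates and 20 (29.4%) lower, where 31.2% and 31.1% of all genes were, and at 2-fold 8 (11.8%) were higher and 8 lower, where 7.68% and 13.2% of all genes were. With library size alone, the counts at an adjusted p turned to 13 higher and 28 lower, and without neonate replicate 1 they were 25 and 19. The median log2 fold change was 0.098, beside -0.0029 for all genes. Each role holds few genes, and its TMM counts below stand beside the same shares of all genes, 31.2% higher and 31.1% lower. The plot of partners by role gives every value.

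**Figure D3:**
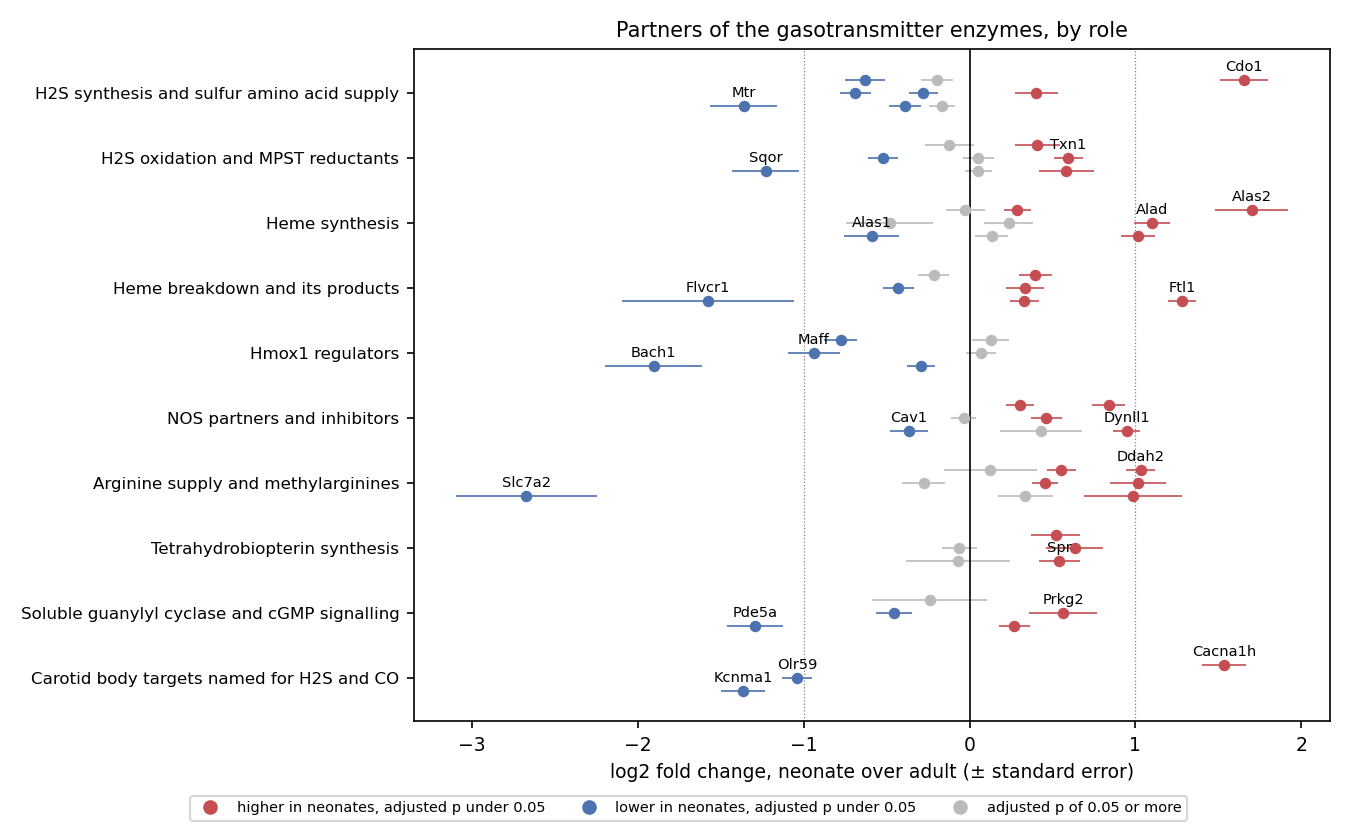
Log2 fold change, neonate over adult, with standard error, of the 68 partner genes tested, in 10 roles. Red points were higher and blue points lower in neonates with an adjusted p below 0.05, gray points were neither, and dotted lines mark 2-fold. Slc7a2 at -2.67 and Bach1 at -1.91 lie lowest and Alas2 at 1.70 highest.

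Of the 6 regulators of Hmox1 tested, 4 were lower in neonates and 2 (Keap1 and Mafg) had an adjusted p of 0.05 or more. None was higher, in edgeR at an adjusted or an unadjusted p under 0.05, in DESeq2 or in limma-voom, and the counts were the same with library size alone and without neonate replicate 1. Bach1, a repressor of Hmox1 that heme releases from DNA, had 3.24 and 1.97 CPM in neonates and 9.95 and 13.4 CPM in adults, and its log2 fold change was -1.91 (SE 0.29, edgeR quasi-likelihood adjusted p = 0.00052). Maff and Mafk, small Maf partners of both repressors and activators at this site, were at -0.94 and -0.78, and Nfe2l2, which encodes the activator NRF2, at -0.30. Bach1, Maff, Mafk and Nfe2l2 thus all changed with age in the direction opposite to Hmox1. Any link of these changes to Hmox1 was not tested.

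Heme supply and breakdown changed unevenly. Among 9 enzymes of heme synthesis, 4 were higher and 1 lower in neonates (3 and 2 with library size alone). Alas2, the first enzyme in erythroid cells, had 34.5 and 21.2 CPM in neonates and 9.85 and 10.5 CPM in adults (log2 fold change 1.70, edgeR adjusted p = 0.00018) and stands on the erythroid list too. Alad (1.10) and Ppox (1.02) were also higher, while Alas1, the first enzyme in other cells, was lower, with 19.3 and 14.1 CPM against 31.9 and 27.9 CPM (log2 fold change -0.59, edgeR adjusted p = 0.012). Alas1 and Alas2 thus differed in direction.

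Of 7 genes that handle heme and its products, 4 were higher and 2 lower in neonates, and with library size alone 1 was higher and 3 lower. Ftl1, the ferritin light chain that stores the freed iron, had 222 and 217 CPM in neonates and 111 and 102.2 CPM in adults (log2 fold change 1.28, edgeR adjusted p = 6.4e-06). The biliverdin reductases Blvra (0.40) and Blvrb (0.34) and ferritin heavy chain (Fth1, 0.33) were higher with TMM and had an adjusted p of 0.05 or more with library size alone. The heme exporter Flvcr1 was lower, at 1.14 and 0.338 CPM against 2.67 and 2.62 CPM (45 and 13 counts against 101 and 95). Its log2 fold change was -1.58 (-2.74 without neonate replicate 1). Only 1 neonatal library reached 1 CPM, so Flvcr1 at its neonatal levels at both ages might not have been tested. Slc48a1, which moves heme out of lysosomes, was also lower at -0.43. Por, the reductase that feeds electrons to both heme oxygenases, was at -0.22 with an adjusted p of 0.068 in edgeR.

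Genes of sulfur amino acid supply moved in both directions. Of 9 tested, 5 were lower and 2 higher in neonates, where 31.1% and 31.2% of all genes were. With library size alone 7 were lower and 1 higher. Mtr, which turns homocysteine back into methionine, had 5.42 and 4.67 CPM in neonates and 13.4 and 17.4 CPM in adults (log2 fold change -1.36, edgeR adjusted p = 0.00041). Gclc, the rate-limiting enzyme of glutathione synthesis from cysteine, was at -0.69, and Got1, which makes the mercaptopyruvate used by Mpst, was at -0.63. Cdo1, which removes cysteine by oxidizing it, went the other way, with 139 and 103 CPM against 46.7 and 44.4 CPM, a log2 fold change of 1.65 (edgeR adjusted p = 2.4e-05). Gclm, unlike Gclc, was also higher, at 0.40 (adjusted p = 0.022, and 0.30 with library size alone, from edgeR).

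Of the 8 genes of H2S oxidation and of the reductants of Mpst, 3 were higher and 2 lower in neonates, and with library size alone 1 was higher and 3 lower. Sqor, the mitochondrial quinone oxidoreductase that takes the first step of H2S oxidation, had 4.56 and 4.54 CPM in neonates and 11.3 and 14.0 CPM in adults (log2 fold change -1.23, SE 0.20, edgeR quasi-likelihood adjusted p = 0.00072). Suox, the sulfite oxidase at the end of the same path, was lower at -0.52. Ethe1, the persulfide dioxygenase between them, was at -0.12 with an adjusted p of 0.50 in edgeR. Tst was higher at 0.41 and Txnrd2 at 0.58, both with an edgeR adjusted p of 0.05 or more at library size alone. The cytosolic thioredoxin Txn1 was higher at 0.60, and its mitochondrial counterpart Txn2 was at 0.052 (edgeR adjusted p = 0.60), with the other sign at library size alone.

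On the NO side, genes that clear methylarginines, the natural inhibitors of NO synthases, were higher in neonates. Ddah2 had 308 and 321 CPM in neonates and 170 and 195 CPM in adults (log2 fold change 1.03, edgeR adjusted p = 2.2e-05), and Ddah1 had a log2 fold change of 1.02. Prmt1, which makes methylarginine in proteins, was higher at 0.45. Of all 9 genes of this role and of arginine supply, 5 were higher and 1 lower (4 and 2 with library size alone). Slc7a2, a transporter that brings arginine into cells, was the lower one, with 0.684 and 0.571 CPM in neonates and 3.15 and 6.42 CPM in adults, and its log2 fold change was -2.67 (SE 0.43, edgeR quasi-likelihood adjusted p = 0.00064). It passed the filter through its adult libraries only.

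Tetrahydrobiopterin is the cofactor that NO synthases share with tyrosine hydroxylase. Of 5 genes for it, 3 were higher in neonates (Gch1, Pts and Spr, from 0.52 to 0.64) and none was lower, in edgeR at an adjusted or an unadjusted p under 0.05, in DESeq2 or in limma-voom, whereas with library size alone none was higher at an adjusted p under 0.05 in edgeR, 2 were at an unadjusted p, and Qdpr was lower. Of the partners of the NO synthases, 4 of 7 were higher (2 with library size alone) and Cav1, the caveolin that holds endothelial synthase inactive, was lower at -0.37 (adjusted p = 0.023, and 0.088 without neonate replicate 1, from edgeR). Dynll1, named for its binding to the neuronal synthase, had 454 and 458 CPM in neonates and 283 and 277 CPM in adults (log2 fold change 0.95, edgeR adjusted p = 2.3e-05). Nosip, which binds the endothelial synthase, was higher at 0.84.

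Downstream, 2 of 5 genes of soluble guanylyl cyclase and cyclic GMP signaling were higher and 2 lower in neonates, and with library size alone none was higher in edgeR at an adjusted or an unadjusted p. The subunits of the cyclase, the receptor for NO, differed, with Gucy1a1 at 0.27 and Gucy1b1 at -0.46. Pde5a, which breaks down cyclic GMP, had 7.02 and 8.52 CPM in neonates and 19.6 and 25.6 CPM in adults (log2 fold change -1.30, edgeR adjusted p = 0.00019). It is abundant in smooth muscle. The smooth muscle and pericyte marker sum was lower in neonates mostly through the pericyte gene Rgs5. The part of these cells in the Pde5a difference was not tested.

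The last role held 3 genes known in work on CB gas signaling. Kcnma1, the large-conductance potassium channel that CO opens and H2S closes, had 7.60 and 7.74 CPM in neonates and 24.5 and 22.4 CPM in adults (log2 fold change -1.37, edgeR adjusted p = 4.6e-05). Olr59, the olfactory receptor gene that corresponds to mouse Olfr78, was lower in neonates, with 122 and 134 CPM against 331 and 292 CPM (log2 fold change -1.04). Cacna1h, the T-type calcium channel that H2S is known to activate, was higher, with 44.2 and 54.0 CPM against 17.7 and 22.4 CPM (log2 fold change 1.54, edgeR adjusted p = 2.3e-05). All 3 directions were the same with library size alone and without neonate replicate 1.

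For Nos1, the 1 enzyme called at 2-fold, the most alike patterns among 11315 tested genes with a mean of at least 5 CPM belonged to Slc36a1, an amino acid transporter of lysosomes, Trnp1, a nuclear protein of neural progenitors, and Chrna7, a nicotinic acetylcholine receptor subunit. Likeness was the Euclidean distance between log2 CPM centered on each gene's own mean over the 4 libraries, and the distances were 0.10, 0.16 and 0.19. Their log2 fold changes were -2.60, -2.68 and -2.55. With 4 libraries in 2 ages, any gene of that fold change lies close.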

How the data were processed

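RNA of pooled rat CBs was sequenced in 4 libraries, 2 per age, and grouped by sample title. The authors deposited estimated counts per gene, not normalized or filtered, which they made by trimming, mapping with STAR to Rnor_6.0.102 and quantification with Salmon (1.5.2 in the submitters' processing notes). Strand handling is not given in the sources used here, so reads of overlapping antisense genes could not be told apart. Estimated counts were rounded. By symbol, 636 genes annotated by RefSeq (GRCr8) as other than protein-coding were removed, and a gene had to reach 1 CPM in 2 or more libraries. The ages were compared in R 4.3.3 with edgeR 4.0.16 (TMM, quasi-likelihood, no covariate, Benjamini-Hochberg over 13843 genes), using the study's thresholds of 0.05 and 2-fold. Alternatives used DESeq2 1.42.0, limma 3.58.1, other scalings and filters, a replicate block and each library left out.

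On simulated counts of 13843 genes, 95 of 100 genes changed 4-fold and 83 of 100 changed 2.8-fold were called with the right sign, and 11 unchanged genes were called. Only these 200 genes were changed, as many up as down, while 62.3% of genes were called in the data. The simulation therefore cannot speak to the choice of scaling. Replicates of an age differed by a chi-square of 36.8 (neonates) and 17.1 (adults) per degree of freedom and were counted separately. Floors cover counting error only. Members, gene lists and motifs were chosen with earlier results of these data known. Named partners were, in each role, up to 3 per direction with the largest change among those called, and others that a sentence on a member needed. Windows before the start site were taken from the RefSeq promoter table, which matched 6 of the 8 enzymes. After the analysis, 1 partner gene was taken off the list and is not reported here. No transcript lengths were used, so levels were not compared between genes.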

Additional observations from a re-analysis of the deposited data

How the results depend on the processing

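Over 12 or 13 alternatives each, Hmox1 (0.62 to 0.98), Nos3 (0.46 to 0.86) and Nos1 (-2.89 to -2.39) kept their direction and an adjusted p under 0.05 in log2 fold change, with Nos1 not tested at a mean of at least 5 CPM, where members lower at 2-fold came to 0. Mpst did not: its log2 fold change was 0.053 with library size alone, 0.27 with no filter, 0.26 at a mean of at least 5 CPM and 0.30 in DESeq2, each at an adjusted p above 0.05, and 0.19 to 0.41 with 1 library left out. Hmox2 was at -0.074 and Cbs at -0.0011 with library size alone, and Cbs ranged from -0.026 to 0.58 with 1 library left out. With no minimum fold change 3 members were higher in neonates, and 28 partner genes higher and 20 lower. Partner genes higher at 2-fold came to 4 with library size alone and 5 at a mean of at least 5 CPM, in place of 8. Over all genes, 1063 were higher and 1822 lower at 2-fold, against 704 higher and 2549 lower with library size alone (21.6% of calls higher in place of 36.8%), 656 and 1168 at a mean of at least 5 CPM, and 4325 and 4300 with no minimum fold change. Fewer genes were tested at 5 CPM, and the cause of the other moves was not tested, beyond the threshold dropped in the last setting. A replicate block gave log2 fold changes of 0.87 for Hmox1, 0.70 for Nos3, -2.63 for Nos1, 0.30 for Mpst, 0.17 for Hmox2 and 0.27 for Cbs and changed no call of a member. Whether the replicate numbers pair the libraries is not stated in the labels. Deviations from the age means correlated at -0.015 over genes, a value that cannot decide whether litters or processing were shared. Fits that leave an age with 1 library assume that it varies like the other age. At about 1 CPM or less, counts limit what could be seen of Cbs and Nos2.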
